A study of Mus musculus with 10 samples.

Results

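The WNT genes described here are the gene symbols named Wnt, Fzd, Sfrp, Dkk or Rspo with a number and suffix, plus Frzb, Wif1, Lrp5, Lrp6, Ror1, Ror2, Ryk, Porcn, Wls, Notum, Axin2, Lef1, Tcf7, Nkd1 and Nkd2. They came to 56 of the 48397 gene symbols counted in each library. The rule goes by name and uses no measured level, but the genes were chosen with earlier results of these data known. RNA of the left atrium was sequenced in bulk from wild-type male C57BL/6J mice that were operated on at 2 months of age and examined 2 weeks later. A group of 5 libraries came from mice with transverse aortic constriction (TAC), a band around the aortic arch that raises the pressure against which the heart pumps, and 5 came from sham-operated mice. No allele or drug separated the groups, and surgery was the only labelled difference. Nothing in the labels ties a library to its own mouse, and p-values therefore cover only the spread between these samples, which may be technical. The strain and sex come from the design text, which names the left appendage, RNeasy and TruSeq kits, and the labels of the samples give left atrium, RNeasy Plus and a Nugen low-input kit.

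WNT proteins are lipid-modified secreted ligands. Porcupine (Porcn) adds the lipid and Wntless (Wls) carries the ligand to the cell surface, where it binds a frizzled receptor together with LRP5 or LRP6, or with ROR or RYK receptors. With LRP5 or LRP6 engaged, beta-catenin escapes destruction, enters the nucleus and acts with TCF and LEF factors. Other routes act on cell polarity, the cytoskeleton and calcium. Secreted frizzled-related proteins (SFRP1 to SFRP5 and FRZB, which is also called SFRP3) and WIF1 bind WNT ligands outside the cell, several DKK proteins bind LRP5 or LRP6, and R-spondins protect frizzleds from removal. In the heart the pathway is known from valve and chamber development and, in adults, from fibroblast activation after injury.

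The depth of a library, as counts summed over genes, was between 17117306 and 43956384, and levels are given as CPM, the counts scaled to a common depth with TMM factors. Differences were tested with edgeR over 15175 genes that passed a filter on low counts, and a gene was called at an adjusted p under 0.05. A log2 change is the log2 fold change, TAC over sham, with its standard error (SE). The labelled tissue was checked on the atrial markers Myl7, Myl4 and Sln, which were high in every library and called lower in TAC. Myl7, the atrial myosin light chain, was at 8276 to 9606 CPM in sham and 1287 to 3433 CPM in TAC, and Myl4 was at 10440 to 12680 CPM and 5327 to 7350 CPM. A sum over 4 ventricular markers was 21.2 to 540.2 CPM in sham and 17.9 to 327 CPM in TAC. All 6 cardiomyocyte markers were called lower in TAC, beside 27.9% of all genes tested. The sum of the 6 was 59380 to 70960 CPM in sham and 27300 to 36690 CPM in TAC. In bulk RNA, fewer cells of a type and less RNA per cell cannot be told apart. When scaling used library size alone, with no TMM factors, the median log2 change over all tested genes moved from 0.01 to 0.37, so every direction below is relative to the TMM median unless stated.

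The secreted frizzled-related family held the largest fold changes of the tested WNT genes. Sfrp5 made up 56.3% of the family's length-scaled RNA in the mean of sham (41.2% to 71.5% by library) and was nearly absent in TAC. Sfrp1, Sfrp2 and Frzb rose and made up nearly all of the family's RNA in TAC. Of the ligands, Wnt11 and Wnt5b rose. The receptor genes Fzd1, Fzd2, Ror1 and Lrp5 rose, the feedback gene Axin2 fell and the feedback gene Nkd2 rose. Of the 56 genes, 39 passed the filter, 15 were higher in TAC and 6 were lower. Over all genes tested, 28.9% were called higher and 27.9% lower, so the share of these 39 genes called in either direction was near the background of 56.8%. TAC libraries lay above every sham library for 12 of the 39 genes, against 21.5% of all genes tested, and below every sham library for 3, against 20.2% (41.7% in either direction). The median log2 change of the 39 genes was 0.15, beside 0.01 over all genes tested. Under library-size scaling the split of calls was 24 higher and 2 lower in place of 15 and 6.

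**Figure D1:**
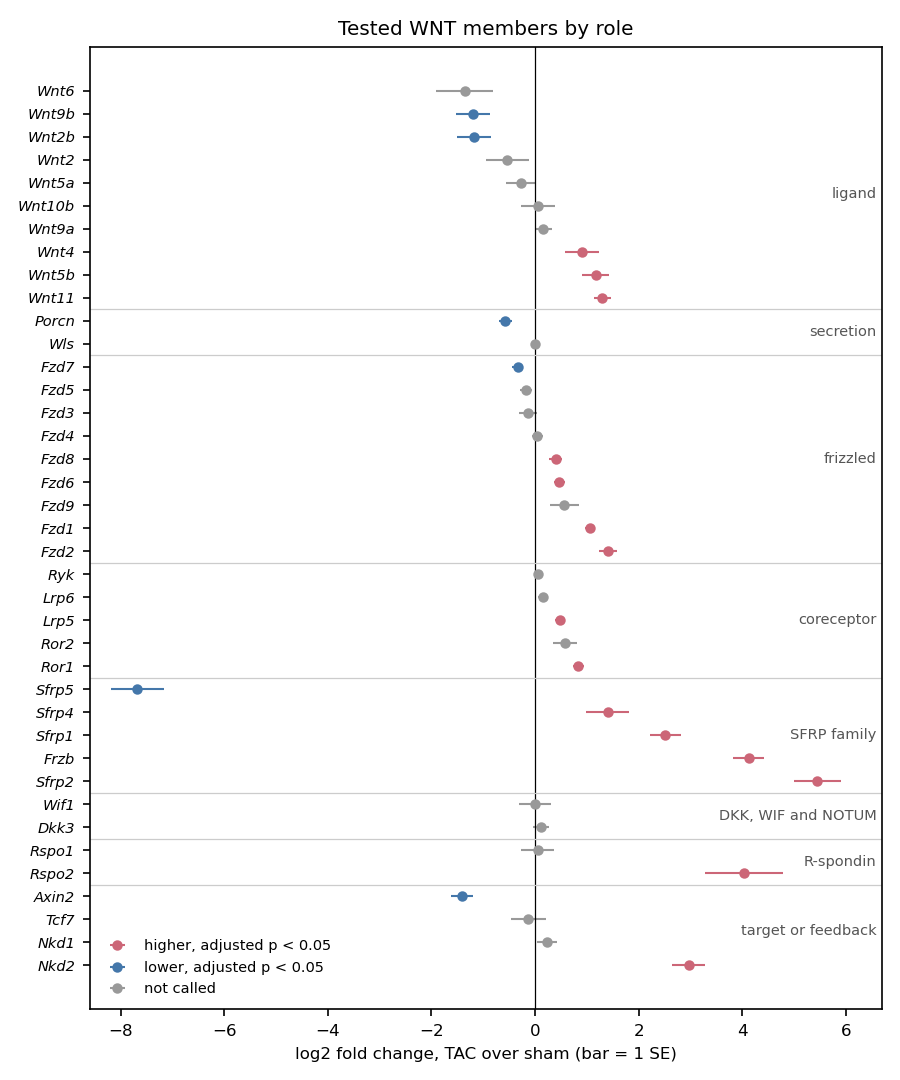
Log2 fold change, TAC over sham, of the 39 tested WNT genes (points) with 1 SE (bars), grouped by role, where red points were called higher, blue points were called lower and grey points were not called. The largest values in either direction belong to the SFRP family, from -7.68 for Sfrp5 to 5.45 for Sfrp2.

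Promoter sequences are shown for the family members that moved furthest apart, Sfrp2 and Frzb against Sfrp5, and for Axin2, a gene commonly read as a beta-catenin target. Each is the 250 bases before the start that RefSeq annotates on GRCm38.p6, written 5′ to 3′ on the gene's strand, with CG dinucleotides in capitals. The windows are Sfrp2 at chr3:83766071-83766320 on the plus strand, Frzb at chr2:80447397-80447646 on the minus strand, Sfrp5 at chr19:42202253-42202502 on the minus strand and Axin2 at chr11:108920099-108920348 on the plus strand. For Frzb, GENCODE M21 places the gene's start further upstream than RefSeq does, so most of the Frzb window lies inside the gene by the GENCODE coordinates given with its values.
Sfrp2: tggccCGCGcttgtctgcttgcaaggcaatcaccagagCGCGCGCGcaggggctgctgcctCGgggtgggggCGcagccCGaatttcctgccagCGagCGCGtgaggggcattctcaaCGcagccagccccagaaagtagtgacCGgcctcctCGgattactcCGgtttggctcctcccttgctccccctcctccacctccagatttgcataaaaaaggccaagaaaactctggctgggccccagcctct
Frzb: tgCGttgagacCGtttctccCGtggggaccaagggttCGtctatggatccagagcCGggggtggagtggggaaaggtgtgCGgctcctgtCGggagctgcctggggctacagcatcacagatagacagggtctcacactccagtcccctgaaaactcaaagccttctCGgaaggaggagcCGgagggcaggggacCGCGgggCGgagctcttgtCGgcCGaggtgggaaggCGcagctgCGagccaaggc
Sfrp5: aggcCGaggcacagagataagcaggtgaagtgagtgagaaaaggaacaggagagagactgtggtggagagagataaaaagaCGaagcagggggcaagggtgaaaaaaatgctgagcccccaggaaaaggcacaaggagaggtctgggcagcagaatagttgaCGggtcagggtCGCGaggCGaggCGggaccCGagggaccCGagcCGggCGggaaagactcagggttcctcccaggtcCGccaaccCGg
Axin2: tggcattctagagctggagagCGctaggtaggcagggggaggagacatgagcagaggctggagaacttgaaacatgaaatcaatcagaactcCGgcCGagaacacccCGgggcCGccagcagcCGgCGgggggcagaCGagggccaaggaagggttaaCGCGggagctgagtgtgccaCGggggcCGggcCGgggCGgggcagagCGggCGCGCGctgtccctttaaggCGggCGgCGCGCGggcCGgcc
These windows hold 16 CG dinucleotides for Sfrp2, 16 for Frzb, 13 for Sfrp5 and 24 for Axin2. Windows were found for 38 of the 56 genes, 45 windows in all, and their median was 20 CG dinucleotides, beside 6 over all 32851 promoter windows. A TCF/LEF motif was searched on both strands, spelled CTTTGNN with A or T at each of the last bases, and occurred in 5 of the 45 windows (11.1%) and in 14.8% of all windows. None of the 4 printed windows holds it, including that of Axin2, which says only that these letters are not within these 250 bases.

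Among the 19 ligands, 10 were tested, 3 were higher in TAC and 2 were lower, beside 56.8% of all genes called in either direction. The median log2 change of the tested ligands was -0.11, beside 0.01 over all genes, and on library size alone 4 were higher and none was lower. Wnt11, a ligand of the non-canonical routes that is needed for outflow tract formation, lies at chr7:98835112-98855195 on the plus strand (GRCm38, GENCODE M21). Its CPM was 4.84, 6.01, 4.68, 6.26 and 5.59 in sham replicates 1 to 5 and 12.7, 17.3, 12.2, 15.5 and 9.50 in TAC replicates 1 to 5. All 5 TAC libraries lay above all 5 sham libraries. Wnt11 rose from 5.48 ± 0.698 to 13.5 ± 3.03 CPM (SD, n = 5), a log2 change of 1.29 (SE 0.16, edgeR adjusted p = 5.2e-05). Of its exonic bases, 8.80% are shared with Gm8398 on the opposite strand, and since the strand setting of the counting is not given, reads of that overlap cannot be told apart.

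Wnt5b, also mostly assigned to non-canonical routes, gave 1.06, 2.11, 1.46, 1.44 and 0.863 CPM in sham and 2.20, 3.61, 2.43, 3.55 and 3.72 CPM in TAC. The groups did not overlap, although the highest sham library (replicate 2) and the lowest TAC library (replicate 1) were close. The rise was from 1.39 ± 0.478 to 3.10 ± 0.728 CPM, with a log2 change of 1.17 (SE 0.26, adjusted p = 0.0022). Wnt4 gave 2.30, 1.15, 1.31, 0.619 and 0.863 CPM in sham and 2.11, 1.67, 2.52, 1.85 and 3.25 CPM in TAC. The groups overlapped through sham replicate 1. Wnt4, a ligand with roles in kidney and gonad formation, was called higher (log2 change 0.91, SE 0.33, adjusted p = 0.034). Leaving out any of sham replicates 2, 3, 4 and 5 or TAC replicates 3 and 5 removed the call (adjusted p of 0.054 to 0.083).

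Wnt2b fell. Its CPM was 3.97, 3.26, 2.19, 2.04 and 2.89 in sham and 0.995, 0.997, 0.918, 0.822 and 2.53 in TAC. The groups overlapped only through TAC replicate 5, which was at the sham level. The log2 change was -1.18 (SE 0.33, adjusted p = 0.01), from 2.87 ± 0.795 to 1.25 ± 0.719 CPM. Wnt9b, a ligand known from kidney and face development, also fell, from 0.646 ± 0.243 to 0.273 ± 0.0628 CPM (log2 change -1.20, SE 0.33, adjusted p = 0.009). Neither call was kept under library-size scaling (adjusted p = 0.062 for Wnt2b and 0.052 for Wnt9b). The Wnt2b call was also lost without the 2 shallowest sham libraries, sham replicates 1 and 2 (log2 change -0.92, adjusted p = 0.069).

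Wnt5a, the best studied non-canonical ligand and the most abundant one per length in sham, gave 27.3, 21.8, 23.1, 22.3 and 15.1 CPM in sham and 16.3, 12.9, 14.5, 12.7 and 33.8 CPM in TAC. In TAC replicates 1 to 4 it lay near or below the lowest sham library, and in TAC replicate 5 it was the highest of the 10 libraries. With all libraries it was not called (21.9 ± 4.39 and 18.0 ± 8.91 CPM, log2 change -0.28, SE 0.27, adjusted p = 0.4). Without TAC replicate 5 the log2 change was -0.62 (adjusted p = 0.0063), and on library size alone it was 0.08. Wnt6 showed the same library apart. It gave 0.511 to 0.683 CPM in sham (median 0.567), 0.0498 to 0.264 CPM in TAC replicates 1 to 4 and 0.633 CPM in TAC replicate 5. It was not called over all libraries (log2 change -1.36, SE 0.55, adjusted p = 0.054) and was called without that library (-2.21, adjusted p = 0.0015).

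The sum over 7 epicardial or mesothelial markers (Wt1, Upk3b, Upk1b, Msln, Krt19, Lrrn4 and Muc16) was 383 CPM in TAC replicate 5 and 152 to 213.6 CPM in the other TAC libraries. In sham it ran from 108 to 365 CPM, and was highest in replicate 2. Of the 7 markers, 1 (Msln) was called higher and 6 were not called, beside 56.8% of all genes called in either direction. None of the 7 was at 0. The part of these markers in the Wnt5a, Wnt2b and Wnt6 values of TAC replicate 5 was not tested.

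The uncalled ligands with a test were Wnt5a, Wnt6, Wnt9a (6.81 ± 1.39 and 7.55 ± 1.26 CPM), Wnt2 (2.13 ± 1.27 and 1.44 ± 0.558 CPM) and Wnt10b, at 0.182 to 0.447 CPM in all libraries. A further 9 ligands failed the low-count filter. Wnt3, Wnt3a and Wnt8a had no read in any library, where a count of 0 allows up to 3 reads. Wnt7b had 46 reads over the sham libraries and 23 over the TAC libraries, Wnt1 had 1 and 11, Wnt8b had 5 and 2, Wnt10a had 3 and 2, Wnt7a had 1 and 4, and Wnt16 had 0 and 4. In CPM per kilobase of exon, which allows levels to be compared between genes, the 19 ligands summed to 9.22 ± 1.27 in sham and 10.8 ± 1.72 in TAC. Wnt5a made up 30.7% ± 6.64 of that sum in sham and 20.7% ± 6.54 in TAC. Wnt11 made up 14.5% ± 2.55 and 31.0% ± 8.66, Wnt5b made up 5.67% ± 1.69 and 10.8% ± 1.92, and Wnt9a made up 20.1% to 28.6% in sham and 19.4% to 22.2% in TAC. The leading ligand per length was thus Wnt5a in the mean of sham and Wnt11 in the mean of TAC, but in sham replicate 5 it was Wnt9a (28.6%, with Wnt5a at 21.9%) and in TAC replicate 5 it was Wnt5a (31.4%, with Wnt11 at 16.7%).

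**Figure D2:**
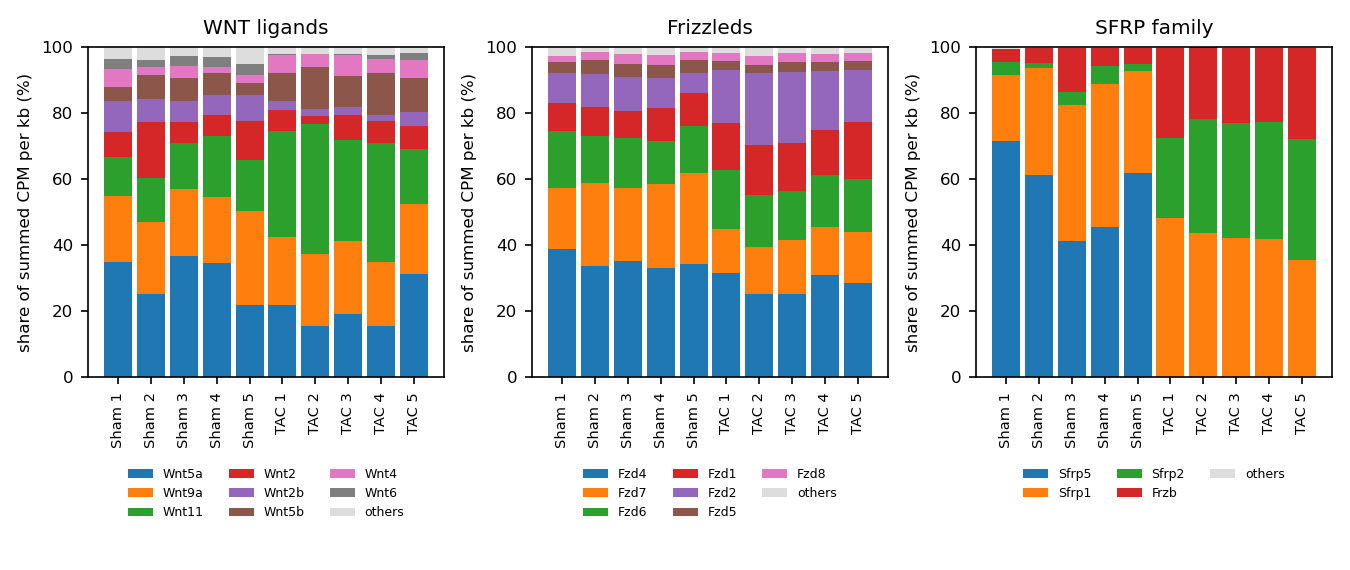
Share of summed CPM per kilobase (%) by gene in each of the 10 libraries, for WNT ligands (left), frizzled receptors (middle) and the SFRP family (right). Sfrp5 holds 41.2% to 71.5% of the family in sham libraries and under 1% in TAC libraries, and Wnt11 takes a larger share of the ligands in TAC replicates 1 to 4.

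Porcn, the enzyme that adds the lipid to WNT ligands, fell. Its CPM was 7.26, 8.69, 6.93, 7.60 and 8.18 in sham and 4.49, 6.15, 4.91, 5.87 and 4.54 in TAC. Every TAC library lay below every sham library. The means were 7.73 ± 0.707 and 5.19 ± 0.773 CPM (log2 change -0.57, SE 0.13, adjusted p = 0.0025), and on library size alone the difference was -0.21 (adjusted p = 0.21). Wls, the ligand carrier, gave 187, 194, 189, 177 and 179 CPM in sham and 177, 194, 176, 188 and 187 CPM in TAC. The groups overlapped fully, at 185 ± 7.23 and 184 ± 7.97 CPM (log2 change -0.01, SE 0.06, adjusted p = 0.96). On library size alone Wls was called higher (0.36, adjusted p = 0.0026), a value close to the shift of the median gene under that scaling.

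Of the 10 frizzleds, 9 were tested, 4 were higher and 1 was lower, near the 56.8% of all genes called in either direction. Under library-size scaling, 6 frizzleds were higher and none was lower. Fzd1 gave 15.0, 15.7, 12.7, 15.1 and 15.7 CPM in sham and 27.2, 31.9, 27.9, 31.0 and 37.1 CPM in TAC. The groups were far apart, with the lowest TAC library above the highest sham library by more than the spread within sham. Fzd1 rose from 14.9 ± 1.23 to 31.0 ± 3.95 CPM (log2 change 1.06, SE 0.10, adjusted p = 6.9e-06). Fzd2 gave 13.8, 15.2, 13.8, 12.5 and 8.22 CPM in sham and 26.6, 40.5, 36.6, 35.2 and 29.2 CPM in TAC. Its groups did not overlap either, and the mean rose from 12.7 ± 2.69 to 33.6 ± 5.65 CPM (log2 change 1.41, SE 0.17, adjusted p = 3.2e-05). Fzd1, Fzd2 and Fzd7 form 1 subfamily of frizzleds by sequence.

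Fzd7, the remaining gene of that subfamily, was called in the other direction. Its CPM was 34.7, 48.0, 36.7, 41.9 and 46.8 in sham and 27.3, 32.6, 33.8, 36.0 and 35.5 in TAC. TAC replicates 4 and 5 lay within the sham range. The means were 41.6 ± 5.90 and 33.1 ± 3.49 CPM (log2 change -0.33, SE 0.11, adjusted p = 0.02), but under library-size scaling the sign turned (0.04, adjusted p = 0.8). The call was also lost without sham replicate 2 (adjusted p = 0.05), TAC replicate 1 (0.053), TAC replicate 2 (0.053) or TAC replicates 2 and 5 together (0.061).

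Fzd6 rose by a smaller amount. It gave 34.6, 28.8, 26.1, 23.1 and 26.1 CPM in sham and 38.6, 38.7, 33.4, 41.3 and 39.2 CPM in TAC. Only TAC replicate 3 reached into the sham range (27.7 ± 4.35 to 38.2 ± 2.91 CPM, log2 change 0.47, SE 0.10, adjusted p = 0.0025). Fzd8 gave 5.09, 6.13, 6.29, 6.47 and 5.03 CPM in sham and 6.69, 8.32, 7.85, 7.93 and 7.49 CPM in TAC. Its groups did not overlap, with means of 5.80 ± 0.689 and 7.65 ± 0.617 CPM (log2 change 0.40, SE 0.12, adjusted p = 0.012). The Fzd8 call was lost without sham replicates 1 and 2 (0.36, adjusted p = 0.052) and without TAC replicates 2 and 5 (0.38, adjusted p = 0.055).

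Fzd4, the most abundant frizzled per length and an endothelial receptor in the retina, gave 109, 96.0, 85.8, 81.2 and 86.6 CPM in sham and 96.3, 86.8, 78.5, 113 and 97.8 CPM in TAC. The groups overlapped across nearly their whole range, and Fzd4 was not called (log2 change 0.04, SE 0.11, adjusted p = 0.75). Fzd3 (adjusted p = 0.5), Fzd5 (0.21) and Fzd9 (0.1) were not called, with 0.638 to 12.8 CPM over the 3 genes and all libraries. Fzd10 had 4 reads in sham and 8 in TAC and was not tested. Summed over the class, frizzled RNA was 38.9 ± 2.87 CPM per kilobase in sham and 49.5 ± 3.72 in TAC. Fzd4 was the largest share in both groups (35.0% ± 2.24 and 28.4% ± 3.01). Fzd7 was the next in sham (23.7% ± 3.50) and was at 14.7% ± 1.10 in TAC, whereas Fzd2 went from 8.91% ± 1.71 to 18.6% ± 2.95 and Fzd1 from 9.13% ± 0.740 to 14.9% ± 1.45.

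**Figure D3:**
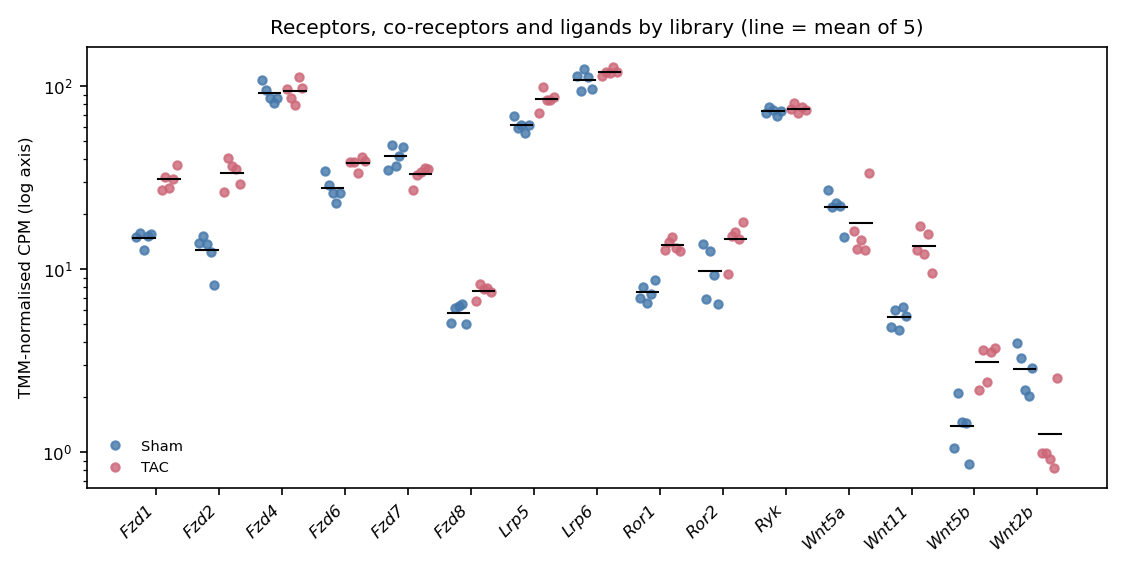
TMM-normalised CPM on a log axis for 11 receptors and co-receptors and 4 ligands, with 1 point per library (replicates 1 to 5 from left, sham blue and TAC red) and a line at the mean of 5. Fzd1, Fzd2, Ror1, Lrp5 and Wnt11 separate the groups, whereas Fzd4, Ryk and Lrp6 overlap.

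Of the 5 co-receptors, all tested, Ror1 and Lrp5 were higher and none was lower, beside 56.8% of all genes called in either direction. Under library-size scaling, all 5 co-receptors were higher. Ror1, a receptor tyrosine kinase family member that binds WNT5A, gave 7.02, 8.05, 6.57, 7.34 and 8.74 CPM in sham and 12.7, 14.2, 15.0, 13.0 and 12.6 CPM in TAC. The groups were well apart (7.54 ± 0.862 to 13.5 ± 1.02 CPM, log2 change 0.84, SE 0.10, adjusted p = 4.3e-05). Lrp5 gave 68.7, 59.2, 61.7, 55.6 and 61.2 CPM in sham and 71.9, 98.6, 84.1, 84.6 and 87.4 CPM in TAC. TAC replicate 1 was just above the highest sham library, and the others were clearly higher (61.3 ± 4.78 to 85.3 ± 9.53 CPM, log2 change 0.48, SE 0.09, adjusted p = 0.00068).

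Lrp6, the close relative of Lrp5, was not called (108 ± 12.4 and 119.8 ± 4.84 CPM, log2 change 0.15, SE 0.08, adjusted p = 0.15). Whether the Lrp5 and Lrp6 differences themselves differ was not tested. Ror2 gave 13.7, 6.90, 12.6, 9.30 and 6.45 CPM in sham and 9.39, 15.1, 16.0, 14.7 and 18.2 CPM in TAC. TAC replicate 1 lay within the sham range, and the difference just missed the threshold (log2 change 0.58, SE 0.23, adjusted p = 0.051). Ror2 was called in 9 of 23 alternatives, among them DESeq2 (adjusted p = 0.034) and library size alone, and its adjusted p reached 0.2 in others. Ryk, the most abundant co-receptor per length, was at 71.5, 77.1, 74.6, 69.2 and 73.3 CPM in sham and 74.7, 81.1, 71.5, 76.9 and 73.9 CPM in TAC. Its groups overlapped (log2 change 0.05, adjusted p = 0.5).

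All 5 members of the SFRP family were tested, and all were called, 4 higher and 1 lower. Over all genes tested, 56.8% were called in either direction. The split of the family was the same on library size alone. Sfrp1 lies at chr8:23411502-23449632 on the plus strand. It gave 34.8, 47.5, 39.4, 51.0 and 45.9 CPM in sham and 152, 432, 209, 310 and 149 CPM in TAC. All TAC libraries were far above all sham libraries, TAC replicates 2 and 4 most of all. Sfrp1 rose from 43.7 ± 6.52 to 250.4 ± 121 CPM, a 5.73-fold change (log2 2.52, SE 0.29, adjusted p = 3.8e-05).

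Sfrp2, at chr3:83766321-83774316 on the plus strand, gave 3.54, 1.15, 1.92, 3.02 and 1.69 CPM in sham and 37.9, 169, 85.6, 130.3 and 75.4 CPM in TAC. The lowest TAC library was over 10 times the highest sham library, and the order within TAC again began with replicates 2 and 4. The rise was 43.7-fold, from 2.26 ± 0.985 to 99.6 ± 50.8 CPM (log2 5.45, SE 0.45, adjusted p = 5.4e-06). An opposite-strand gene, Gm26771, shares 16.1% of its exonic bases. Frzb, at chr2:80411970-80447625 on the minus strand, gave 5.15, 4.86, 9.36, 4.82 and 5.07 CPM in sham and 64.1, 159.6, 83.6, 123 and 85.7 CPM in TAC. Sham replicate 3 stood above the other sham libraries but far below any TAC library. Frzb rose 17.5-fold, from 5.85 ± 1.97 to 103 ± 38.0 CPM (log2 4.12, SE 0.30, adjusted p = 2.1e-06). Over all genes tested, 2.71% were called with a log2 change of at least 3 in size.

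Sfrp4 was the least abundant of the family per length in sham. It gave 0.807, 0.511, 0.334, 0.412 and 0.563 CPM in sham and 0.625, 1.22, 1.18, 2.85 and 0.897 CPM in TAC. TAC replicate 1 lay within the sham range and replicate 4 was well above the rest (log2 change 1.40, SE 0.42, adjusted p = 0.014).

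Sfrp5, at chr19:42197971-42202252 on the minus strand, went the other way. It gave 54.1, 39.4, 17.1, 23.3 and 39.8 CPM in sham and 0.116, 0.0249, 0.178, 0.441 and 0.106 CPM in TAC, or 4018 reads over the sham libraries and 31 over the TAC libraries. No TAC library came near the lowest sham library. The means were 34.8 ± 14.7 and 0.173 ± 0.159 CPM, so that sham was 204-fold above TAC (log2 -7.68, SE 0.50, adjusted p = 1.4e-06). Without TAC replicate 4, the TAC library with the most Sfrp5, the log2 change was -8.32.

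**Figure D4:**
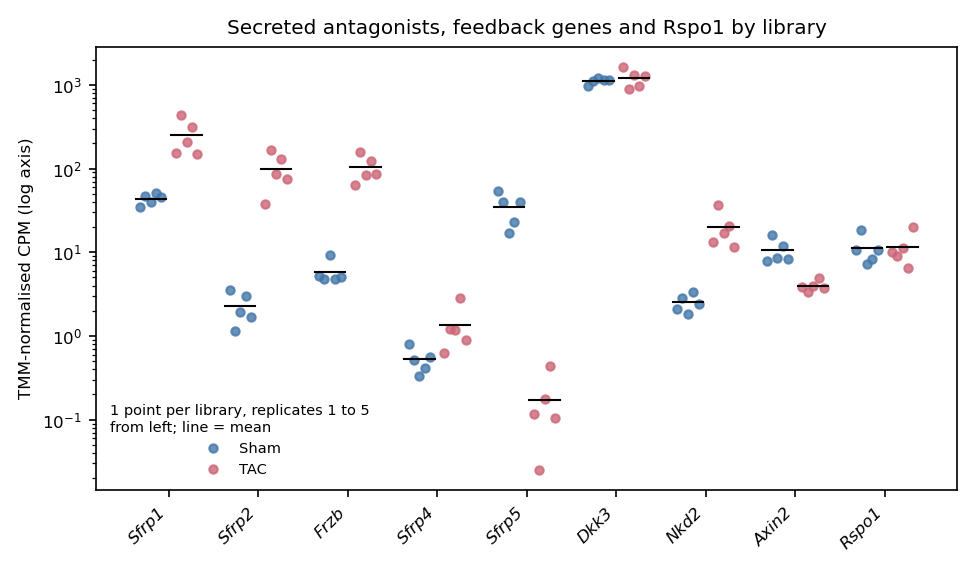
TMM-normalised CPM on a log axis for the SFRP family, Dkk3, Nkd2, Axin2 and Rspo1, with 1 point per library (replicates 1 to 5 from left, sham blue and TAC red) and a line at the mean of 5. Sfrp1, Sfrp2, Frzb and Nkd2 lie higher in TAC and Sfrp5 and Axin2 lower, without overlap, while Dkk3 and Rspo1 overlap.

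Per kilobase of exon, the family summed to 31.3 ± 6.97 CPM in sham (21.9 to 39.9) and 135.8 ± 62.4 CPM in TAC (72.4 to 226.8). Sfrp5 was 56.3% ± 12.5 of the sum in sham (41.2% to 71.5%) and 0.0732% in the mean of TAC (0.00578% to 0.136%). Sfrp1 was the next in sham and the largest in the mean of TAC, at 33.5% ± 9.31 and 42.2% ± 4.52. Sfrp2 went from 3.46% ± 1.47 to 33.2% ± 5.02, and Frzb from 6.36% ± 3.87 to 24.3% ± 2.90. Within TAC the summed level of the highest library was over 3 times that of the lowest, while the shares of Sfrp1, Sfrp2 and Frzb ran from 35.5% to 48.1%, 24.3% to 36.6% and 21.7% to 27.6%.

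Markers of activated fibroblasts (Postn, Cthrc1, Cilp, Acta2, Fap and Meox1) moved with the rising family members. Of the 6, 5 were called higher and none lower, beside 28.9% higher and 27.9% lower over all genes tested. None of the 6 was at 0, and their sum was 107 to 179 CPM in sham and 685 to 1821 CPM in TAC. That sum was 1821 CPM in TAC replicate 2 and 1177 CPM in replicate 4, the libraries with the most Sfrp1, Sfrp2 and Frzb, and 685 to 871 CPM in the other 3. Postn alone gave 1356 and 820 CPM of it in replicates 2 and 4. Cthrc1 and Fap were also highest in these TAC libraries. Among TAC libraries, Cilp was highest in replicate 1 (145.8 CPM) and Meox1 was lowest in replicate 4 (41.1 CPM). Acta2 was higher in TAC replicate 5 than in replicate 4 (110.8 and 102.9 CPM). Of 7 general fibroblast markers, 4 (Col1a1, Col1a2, Tcf21 and Lum) were higher without overlap, 2 (Gsn and Dcn) were lower and none was at 0. Their sum overlapped between the groups (4297 to 6176 CPM in sham and 4093 to 7848 CPM in TAC), but it added changes in opposite directions. In the means, Gsn fell from 3264 to 1000 CPM and Dcn from 1195 to 903 CPM. Col1a1 rose from 178.7 to 1293 CPM and Col1a2 from 271.9 to 1744 CPM. Of 6 macrophage markers, 5 (Csf1r, Adgre1, Cd68, C1qa and Lyz2, not Cd163) were higher and none lower, beside 28.9% and 27.9% of all genes tested. None was at 0, and the macrophage sum was 248 to 431 CPM in sham and 579 to 949 CPM in TAC. Within TAC that sum was highest in replicate 2, and replicates 3 and 4 were close (780.1 and 789.6 CPM). Adgre1 and C1qa were higher in replicate 3 than in replicate 4, and the other macrophage markers were lower. The part of these 3 marker lists in the Sfrp1, Sfrp2 and Frzb results was not tested. Without TAC replicates 2 and 5 together, an alternative chosen after the data were seen that kept replicate 4, all 5 family members kept their call. Since every TAC library exceeded every sham library in the activated fibroblast and macrophage sums, leaving libraries out cannot decide the part of these markers.

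In TAC replicate 5 the mesothelial sum was 383 CPM, of which Msln, itself called higher, gave 104 CPM and Upk3b, within its sham range, gave 124.4 CPM. Msln, Wt1, Upk1b, Krt19 and Lrrn4 were above every sham library there, and Muc16, like Upk3b, was within its sham range. Sfrp5 was at 0.106 CPM in TAC replicate 5, and the part of mesothelial RNA in the Sfrp5 result was not tested. Adipocyte markers fell with Sfrp5. Of 5 (Adipoq, Plin1, Cfd, Retn and Lep), 4 were tested and all 4 were lower, beside 27.9% of all genes tested. None of the 5 markers was at 0 in every library. Their sum was 20.9, 59.7, 26.6, 18.9 and 36.6 CPM in sham and 1.94, 0.523, 6.01, 16.4 and 1.74 CPM in TAC. TAC replicate 4 had the most of both Sfrp5 and these markers among TAC libraries and replicate 2 the least of both, on 31 Sfrp5 reads over the TAC group. In replicate 4 most of the adipocyte sum came from Cfd (10.6 CPM) and Adipoq (3.99 CPM), which were within their sham ranges, while Plin1, Retn and Lep were below every sham library, as was Sfrp5. In sham, on 4018 reads, Sfrp5 gave 54.1, 39.4, 17.1, 23.3 and 39.8 CPM in replicates 1 to 5. The mesothelial sum there was 259, 365, 117, 108 and 188 CPM. Both were lowest in sham replicates 3 and 4, while Sfrp5 was highest in replicate 1 and the mesothelial sum in replicate 2. The adipocyte sum was also highest in sham replicate 2, and it was next to lowest in replicate 1, the library with the most Sfrp5. The part of adipocyte RNA in the Sfrp5 result was not tested.

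**Figure D5:**
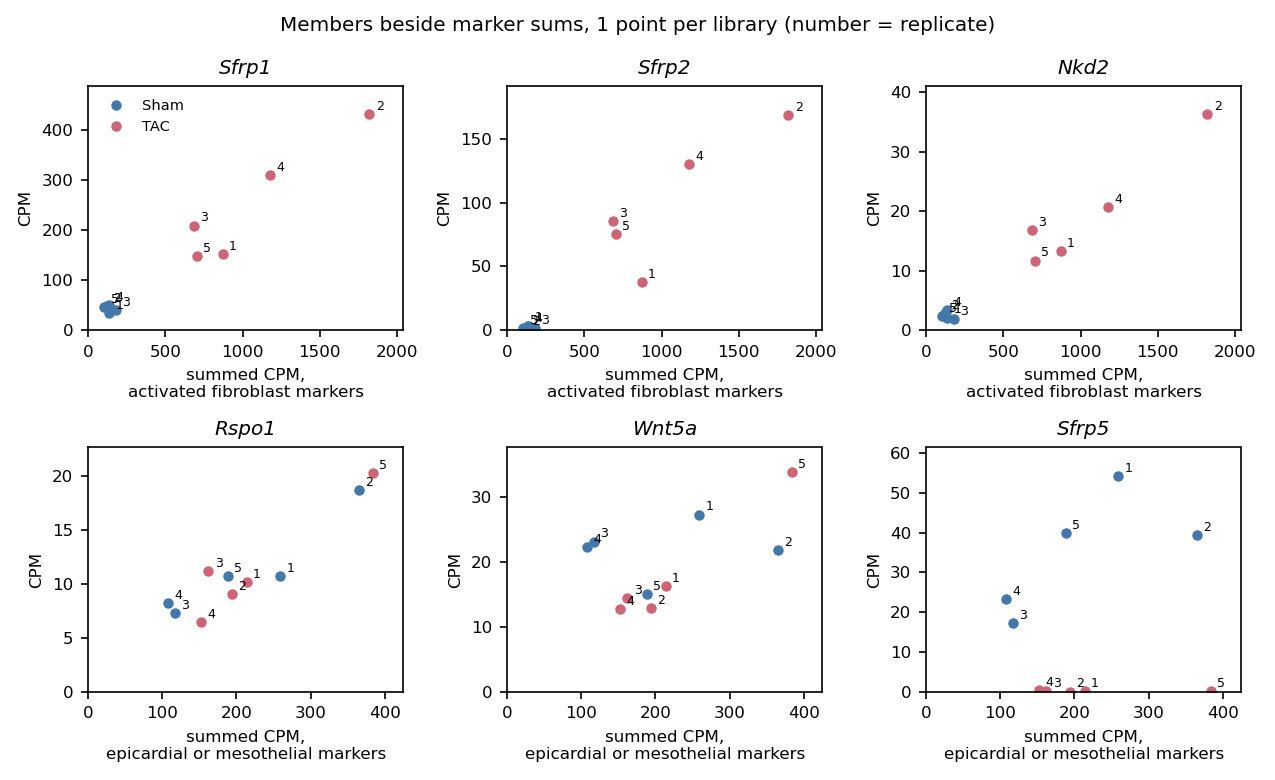
CPM of 6 WNT genes (vertical axes) against the summed CPM of marker genes (horizontal axes), with 1 numbered point per library, sham blue and TAC red. TAC replicates 2 and 4 are highest on both axes for Sfrp1, Sfrp2 and Nkd2, and TAC replicate 5 is highest on both axes for Wnt5a and Rspo1, whereas Sfrp5 stays near 0 in all TAC libraries.

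Of the 6 genes for DKK proteins, WIF1 and the WNT deacylase NOTUM, 2 were tested and neither was called. Dkk3, a divergent family member that is not an established LRP6 ligand, was the most abundant of the 56 genes per length (333 and 363 CPM per kilobase). It gave 984, 1116, 1197, 1152 and 1142 CPM in sham and 1630, 889, 1309, 976 and 1285 CPM in TAC. TAC replicates lay on both sides of the sham range (log2 change 0.12, SE 0.15, adjusted p = 0.52). On library size alone it was called higher (0.48, adjusted p = 0.0093). Wif1 was at 0.652 ± 0.426 and 0.677 ± 0.186 CPM and was not called. Dkk4 had no read, Dkk1 had 1 and 2 reads in sham and TAC, Notum had 34 and 24, and Dkk2 had 8 and 47.

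R-spondins bind LGR receptors and keep the ligases ZNRF3 and RNF43 from removing frizzleds. Rspo2, at chr15:43020794-43170826 on the minus strand, gave 0, 0.383, 0.0608, 0 and 0.188 CPM in sham and 1.02, 0.847, 2.37, 1.35 and 3.46 CPM in TAC. Every TAC library lay above every sham library, on 13 reads over the sham group and 335 over the TAC group. Rspo2 rose from 0.126 ± 0.163 to 1.81 ± 1.09 CPM (log2 change 4.03, SE 0.75, adjusted p = 0.00079). Without sham replicate 2, which held most of the sham level, the log2 change was 4.78.

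Rspo3, the R-spondin known from endothelium, went the other way on few reads and failed the filter. It gave 0.683, 0.895, 0.426, 0.335 and 0.525 CPM in sham and 0.139, 0.0249, 0.148, 0.176 and 0.0792 CPM in TAC, from 66 and 21 reads. Its groups did not overlap. In the fit with no filter on low counts, where 16.6% of 27785 genes were higher and 14.1% lower, its log2 change was -2.25 (adjusted p = 0.0012). In that same fit Dkk2 was at 1.97 (adjusted p = 0.049), with groups that overlapped. Rspo1, the most abundant R-spondin per length, gave 10.7, 18.7, 7.32, 8.25 and 10.7 CPM in sham and 10.2, 9.04, 11.2, 6.43 and 20.3 CPM in TAC. The groups overlapped (log2 change 0.05, SE 0.32, adjusted p = 0.9), and without TAC replicate 5 the value was -0.25. Sham replicate 2 and TAC replicate 5, its highest libraries, also had the highest mesothelial marker sums of their groups (365 and 383 CPM), whose part was not tested. Rspo4 had 1 read in sham and none in TAC.

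Of the 5 genes read as targets or feedback, 4 were tested, 1 was higher and 1 was lower, beside 56.8% of all genes called. Axin2, a scaffold of the beta-catenin destruction complex that the pathway itself induces, lies at chr11:108920349-108950783 on the plus strand. It gave 7.88, 16.0, 8.57, 11.9 and 8.22 CPM in sham and 3.82, 3.34, 3.91, 4.93 and 3.75 CPM in TAC. Every TAC library was below every sham library. Axin2 fell from 10.5 ± 3.46 to 3.95 ± 0.592 CPM (log2 change -1.41, SE 0.21, adjusted p = 0.00014), and it was called lower in each of the alternatives tried, library size only included.

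Nkd2, which binds dishevelled and dampens the pathway, lies at chr13:73818534-73847631 on the minus strand. It gave 2.11, 2.88, 1.82, 3.32 and 2.44 CPM in sham and 13.4, 36.3, 16.8, 20.7 and 11.7 CPM in TAC. The groups were far apart, with TAC replicates 2 and 4 highest, as for Sfrp1, Sfrp2, Frzb and the sum over the activated fibroblast markers. Nkd2 rose from 2.52 ± 0.598 to 19.8 ± 9.87 CPM (log2 change 2.97, SE 0.32, adjusted p = 2.2e-05). Nkd1, its relative, gave 3.35, 5.56, 3.65, 4.05 and 5.82 CPM in sham and 4.14, 6.03, 4.74, 5.02 and 6.36 CPM in TAC. Its groups overlapped (log2 change 0.23, SE 0.19, adjusted p = 0.32). Tcf7 and Lef1, transcription factors of the pathway that T cells also express, were low. Tcf7 was at 0.808 ± 0.443 and 0.730 ± 0.187 CPM (adjusted p = 0.77), and Lef1 had 11 reads in sham and 22 in TAC. The sum over 7 T cell markers was also low, at 3.15 to 8.26 CPM in sham and 1.60 to 4.86 CPM in TAC. Of 4 tested T cell markers, 1 (Trac) was called lower, beside 27.9% of all genes tested, and none of the 7 was at 0 in every library.

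The rest of the pathway was read from 4 lists with 64 genes, of which 61 were tested, 22 were higher and 14 were lower, with a median log2 change of 0.08 beside 0.01 over all genes. Over all genes tested, 28.9% were higher and 27.9% lower. Under library-size scaling, 41 were higher and 5 lower. In the list of the beta-catenin core, all 22 genes were tested, and 4 were higher and 5 lower, a share of calls below the background of 56.8%. Under library-size scaling that split was 14 higher and none lower. Ctnnbip1, an inhibitor that keeps beta-catenin from TCF factors, rose from 17.5 ± 2.93 to 28.9 ± 2.93 CPM (log2 change 0.72, SE 0.12, adjusted p = 0.00036). Tcf7l1, the TCF factor best known as a repressor, rose from 22.6 ± 1.25 to 32.3 ± 3.75 CPM (0.52, SE 0.09, adjusted p = 0.00043). Ctnnb1, which encodes beta-catenin, and Cby1 were the other genes called higher. Pygo1, a nuclear cofactor of beta-catenin, fell from 38.9 ± 8.35 to 26.9 ± 1.40 CPM (-0.54, SE 0.13, adjusted p = 0.0039) but was not called on library size alone (adjusted p = 0.22). Btrc, the ligase subunit that recognises marked beta-catenin, was lower (27.8 ± 3.66 and 22.2 ± 0.839 CPM, -0.32, SE 0.09, adjusted p = 0.0088), its sign turned on library size alone (0.04), and its call was lost without TAC replicates 2 and 5.

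Of 16 surface regulators, 13 were tested, 4 were higher and 3 were lower, beside 56.8% of all genes called in either direction, and on library size alone 9 were higher and 1 lower. Sost, which encodes sclerostin, a secreted antagonist that binds LRP5 and LRP6, rose from 2.25 ± 1.32 CPM (0.902 to 3.74) to 51.0 ± 9.63 CPM (40.3 to 63.6) without overlap. The log2 change was 4.53 (SE 0.36, adjusted p = 3.4e-06). Tpbg, a membrane protein that dampens beta-catenin signalling, rose from 0.854 ± 0.287 to 2.43 ± 0.760 CPM (1.53, SE 0.29, adjusted p = 0.00077). Lrp4, a receptor that holds sclerostin, fell from 25.1 ± 2.79 to 18.1 ± 1.59 CPM (-0.47, SE 0.10, adjusted p = 0.0012), and Znrf3, the ligase that R-spondins act on, fell from 10.6 ± 0.743 to 7.87 ± 0.283 CPM (-0.43, SE 0.09, adjusted p = 0.0013). Neither Lrp4 nor Znrf3 was called on library size alone (adjusted p = 0.39 and 0.57). Lgr6, an R-spondin receptor named here after its values were seen, fell from 133 ± 84.9 to 22.4 ± 15.4 CPM with groups that overlapped (-2.57, SE 0.67, adjusted p = 0.0069).

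Of 15 planar polarity and non-canonical genes, all tested, 7 were higher and 4 lower, beside the same 56.8%, and on library size alone 10 were higher and 3 lower. All 3 CELSR genes, atypical cadherins of the polarity complex, were called lower. Celsr2 fell from 16.7 ± 1.03 CPM (15.5 to 18.1) to 5.27 ± 0.574 CPM (4.53 to 6.14), without overlap (log2 change -1.66, SE 0.10, adjusted p = 6.5e-07). Celsr3 fell from 1.77 ± 0.310 to 0.354 ± 0.138 CPM (-2.33, SE 0.29, adjusted p = 5.3e-05). Their partners in that complex went the other way, as Vangl1, Vangl2, Prickle1 and Prickle2 were called higher. The Vangl2 call (adjusted p = 0.021) was lost without TAC replicate 4, without sham replicates 1 and 2 and without TAC replicates 2 and 5 (adjusted p up to 0.072). Vangl1 rose from 17.1 ± 2.18 to 26.6 ± 4.06 CPM (0.63, SE 0.12, adjusted p = 0.0009). Mcam, a surface protein described as a WNT5A receptor and also a mural and endothelial cell marker, rose from 81.0 ± 8.96 to 253 ± 67.2 CPM (1.65, SE 0.17, adjusted p = 1.3e-05). Of 5 mural markers, 3 were higher and none was lower, near the 56.8% of all genes called in either direction. None of these markers was at 0, and they summed to 335 to 415 CPM in sham and 566 to 739 CPM in TAC. Their part in the Mcam result was not tested.

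Of 11 genes often used as WNT targets, all tested, 7 were higher and 2 lower, with a median log2 change of 0.64. Over all genes tested, 56.8% were called and the median was 0.01. On library size alone 8 were higher and 1 lower. Wisp2 (CCN5), a secreted matrix-associated protein, rose from 8.98 ± 2.99 to 288 ± 109 CPM (log2 change 4.98, SE 0.33, adjusted p = 1.3e-06). Its TAC libraries ran from 157 CPM in replicate 1 to 447 CPM in replicate 2. Sp5, a transcription factor induced by beta-catenin in many cell types, rose from 0.0505 ± 0.0294 to 0.947 ± 0.293 CPM on 6 and 178 reads (4.23, SE 0.47, adjusted p = 2.1e-05). Tnfrsf19 fell from a mean of 12.5 CPM (11.1 to 14.4) to 2.71 CPM (2.06 to 3.56) without overlap (-2.20, SE 0.16, adjusted p = 1.6e-06). Tbx3 was called lower (5.75 ± 1.80 and 3.95 ± 0.568 CPM, -0.54, adjusted p = 0.04), but the call was lost when any library except sham replicates 2 and 5 was left out, and on library size alone the value was -0.19 (adjusted p = 0.48). Ccnd1, Wisp1, Cd44, Twist1 and Snai2 were also higher, and Myc and Bambi were not called. The Ccnd1 call (adjusted p = 0.037) was lost when any of sham replicates 2 to 5 or TAC replicates 3 to 5 was left out (adjusted p up to 0.088 over its alternatives), and the Cd44 call (adjusted p = 0.011) was lost without TAC replicates 2 and 5 together (0.064). The list thus held genes on both sides, Sp5 and Tnfrsf19 among them, and Axin2 was on the lower side. Of these genes, Ccnd1, Twist1, Snai2 and Cd44 also answer to other pathways.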

How the data were processed

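Left atrial RNA was measured in 10 libraries, 5 sham and 5 TAC, grouped by their titles. The authors deposited raw counts per gene symbol, 1 table per library, without normalization. STAR, bcl2fastq and the mouse build mm10 are named without versions in the submitters' processing notes, and for the counter, strand setting and annotation the entry is: not given in the sources used here. The 5 tallies that name no gene were left out of library sizes and tests: reads in no gene were 2.86% to 4.83% of reads per library, ambiguous reads 3.85% to 6.09%, unaligned reads 3.60% to 5.49% and reads aligned to several places 12.1% to 16.8%, while the tally of low alignment quality was 0. Total counts over genes of 17117306 to 43956384 set the precision, and genes with few reads rest on counting error as well as on the spread between libraries.

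All genes were fitted together with edgeR 4.0.16 in R 4.3.3 (TMM factors, filterByExpr at its defaults, robust quasi-likelihood F test, group as the only term), with Benjamini-Hochberg adjustment over 15175 tested genes and a threshold of 0.05. Levels are TMM-normalised CPM as mean ± SD, n = 5. Standard errors of log2 changes were taken as the absolute change over the root of F. Lengths, coordinates and overlaps came from GENCODE M21 (GRCm38), in which all 56 genes were found, and CPM per kilobase uses the union of exons. Rspo4os, an antisense transcript, and Dkkl1 do not match the naming rule and were not used. The fit was tested on simulated data. The sum over the left atrial marker list is not reported here. The WNT genes, pathway lists and marker lists were chosen with earlier results of these data known. By rule, library values are given for every called WNT gene whose mean log2 CPM was 0 or more and for the most abundant uncalled gene of each role, and from each pathway list the 2 called genes in each direction with the smallest adjusted p are given with values. Library values of Wnt6, Ror2 and Rspo3, which the rule does not name, were added after they were seen. Alternatives were other scalings and filters, non-robust estimation, DESeq2 1.42.0, limma 3.58.1 (voom with quality weights), mitochondrially encoded genes removed, a block for the replicate number, an adjusted p under 0.01 and libraries left out. Leaving out TAC replicates 2 and 5 together was added after the data were seen.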

Additional observations from a re-analysis of the deposited data

Results flagged for a closer look

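Among the 39 tested WNT genes, 78 groups of 5 libraries were examined for a single library whose gap to the nearest other was large against the range of its group. Chance flags about 1 in 20 such groups, and 5 were found. Frzb was at 9.36 CPM in sham replicate 3, with the other sham libraries at 4.82 to 5.15 CPM. Fzd1 was at 12.7 CPM in the same library, the lowest of its group, with the others at 15.0 to 15.7 CPM. Sfrp4 was at 2.85 CPM in TAC replicate 4, with the other TAC libraries at 0.625 to 1.22 CPM. Wnt2b was at 2.53 CPM in TAC replicate 5, with the others at 0.822 to 0.997 CPM. Wnt5a was at 33.8 CPM in the same library, with the others at 12.7 to 16.3 CPM, and its fold change without that library is given with the ligands.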

How the results depend on the processing

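Of the 21 called WNT genes, 13 kept direction and call in each of 23 alternatives: Axin2, Frzb, Fzd1, Fzd2, Fzd6, Lrp5, Nkd2, Ror1, Sfrp1, Sfrp2, Sfrp5, Wnt11 and Wnt5b. Rspo2 did so in the 22 that tested it, as it failed the filter of a CPM of at least 1 in 5 libraries. Scaling by library size alone gave 7741 higher and 1929 lower genes in place of 4383 and 4233 over all genes, 24 and 2 in place of 15 and 6 WNT genes, and 41 and 5 in place of 22 and 14 pathway genes. Lower pathway genes numbered 9 without TAC replicates 2 and 5 and 9 at an adjusted p under 0.01. Leaving out 1 library at a time gave 4136 to 4602 higher and 3762 to 4224 lower genes in all, 14 to 16 higher and 5 to 9 lower WNT genes (9 without TAC replicate 5), and 20 to 25 higher and 12 to 15 lower pathway genes. DESeq2 called 17 WNT genes higher and 7 lower. The replicate number as a block gave 15 higher and 7 lower WNT genes and 22 and 13 pathway genes. Same-numbered libraries showed little shared deviation (correlations of -0.036, -0.018, 0.08, 0.003 and 0.023 for replicates 1 to 5). Of the sham libraries, only replicate 3 correlated best with the TAC library of its own number. A pairing that leaves little shared deviation cannot be seen this way, and the labels state none. Without TAC replicates 2 and 5, 13 WNT genes were higher and 8 lower. Signs turned for 10 tested WNT genes, 9 of them uncalled, and Fzd7 (0.037 on library size alone) was the called one. On library size alone the log2 change was 0.21 for Fzd3, 0.19 for Fzd5, 0.23 for Tcf7, 0.37 for Wif1, 0.36 for Wls and 0.082 for Wnt5a. With voom it was -0.016 for Fzd4, 0.012 for Tcf7, 0.31 for Wif1 and -0.089 for Wnt10b. Wif1 was also at 0.049 with upper-quartile factors, 0.022 with no filter, 0.16 with the block and 0.014 with DESeq2, and Wls at 0.045 and 0.015 with the first 2 of these. Without TAC replicates 2 and 5, Rspo1 was at -0.24 and Wif1 at 0.082, and without the 2 shallowest sham libraries Tcf7 was at 0.045 and Wls at 0.017. Over single libraries left out, Fzd4 ran from -0.012 to 0.11, Rspo1 from -0.25 to 0.31, Tcf7 from -0.29 to 0.19, Wif1 from -0.17 to 0.46, Wls from -0.025 to 0.030 and Wnt10b from -0.10 to 0.29. The cause was not tested. Depth limits the 17 untested WNT genes, of which 12 had fewer than 30 reads over all 10 libraries.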
